A study of Mus musculus with 62 samples.

Results

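The genes described here are the opioid and tachykinin peptide precursors and opioid receptors of the mouse prefrontal cortex (PFC) and nucleus accumbens (NAc). They were chosen by name, as rows of the count table whose Ensembl identifier maps to Penk, Pdyn, Pnoc, Tac1, Oprm1, Oprk1, Oprd1 or Oprl1. Of these 8 genes, 6 were counted among the 11121 genes of the table, and Oprm1 and Oprd1 were not analysed here. The libraries came from male wild-type C57BL/6J mice aged 15 weeks, which had either undergone multimodal chronic restraint stress (mCRS, repeated daily restraint in a tube under changing conditions) or had been left unstressed (CTR). RNA was profiled by BRB-seq, in which barcoded libraries made from the 3′ ends of polyadenylated transcripts are sequenced in a pool. There were 15 PFC CTR, 15 PFC mCRS, 16 NAc CTR and 16 NAc mCRS libraries. Both regions were dissected from the same mice, but the labels do not tie a library to a mouse, so the libraries were compared as independent samples.

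Enkephalins, dynorphins, nociceptin and the tachykinins are short neuropeptides cut out of larger precursor proteins in the secretory pathway and released from dense-core vesicles. Proenkephalin gives mainly ligands of the delta and mu opioid receptors, prodynorphin ligands of the kappa receptor, prepronociceptin the ligand of the nociceptin receptor, and protachykinin 1 substance P and neurokinin A. In the striatum, including the NAc, enkephalin marks the projection neurons that carry the D2 dopamine receptor, while dynorphin and substance P mark those that carry the D1 receptor. In cortex the same precursors are made mostly by sparse populations of interneurons, and by some excitatory neurons.

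The 4 ligand genes differ in how often the active core of the peptide is written in the transcript. The stretches below, of 27 bases each, are shown because they are what makes each RNA a ligand transcript. They were read from GENCODE transcripts on GRCm38, 5′ to 3′ on the coding strand, and capitals mark the 15 bases that code for the first 5 residues of an opioid or nociceptin peptide or the last 5 of a tachykinin.
Penk, first Met-enkephalin: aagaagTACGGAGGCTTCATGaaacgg
Penk, Leu-enkephalin: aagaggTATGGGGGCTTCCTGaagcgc
Pdyn, second Leu-enkephalin core: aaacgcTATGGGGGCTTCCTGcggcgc
Pnoc, start of nociceptin: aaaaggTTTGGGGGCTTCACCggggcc
Tac1, substance P ending: cagTTCTTTGGATTAATGggcaagcgg
Tac1, neurokinin A ending: tccTTTGTTGGACTAATGggcaaaaga
The Penk transcript held 6 Met-enkephalin cores, written in 5 different ways, and 1 Leu-enkephalin core, and the 2 stretches shown lie at chr4:4134328-4134354 and chr4:4133935-4133961 on the minus strand, in exon 2 of 2. The Pdyn transcript held 3 Leu-enkephalin cores in 3 spellings, and the one shown lies at chr2:129688124-129688150 on the minus strand, in exon 4 of 4. Its 15 core bases were identical to those of the Penk Leu-enkephalin, while the first Penk core and the Pnoc core shared 10 of 15 bases. The Pnoc stretch lies at chr14:65404872-65404898 on the minus strand, in exon 3 of 4. The Tac1 stretches lie on the plus strand at chr6:7556747-7556773 and chr6:7559113-7559139, in exons 3 and 6 of the 7 exons of the longer Tac1 transcript, and shared 12 of 15 core bases. The shorter Tac1 transcript lacked the second one, and counts per gene from 3′ ends do not separate these transcripts.

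The counted members lie at chr4:4133531-4138819 (Penk, ENSMUSG00000045573), chr2:129686565-129699844 (Pdyn, ENSMUSG00000027400), chr14:65400673-65425472 (Pnoc, ENSMUSG00000045731), chr6:7554879-7565834 (Tac1, ENSMUSG00000061762), chr1:5588466-5606131 (Oprk1, the kappa receptor, ENSMUSG00000025905) and chr2:181715016-181720985 (Oprl1, the nociceptin receptor, ENSMUSG00000027584), all on GRCm38.

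Library totals ranged from 945286 to 4857359 counts, with group medians of 2398072 (PFC CTR), 1966931 (PFC mCRS), 2884276 (NAc CTR) and 2615250 (NAc mCRS). Levels are given as CPM, counts scaled to the size of the library with TMM factors, over the 62 libraries. A count of 0 allows a level of up to 0.618 to 3.17 CPM depending on the library, for counting error only. This limit was taken on the library totals, without TMM factors. The 11 striatal projection neuron markers summed to 2532 to 7572 CPM in 31 of the 32 NAc libraries and to 569 to 1868 CPM in PFC. The 9 cortical excitatory markers summed to 713 to 1667 CPM in PFC and 34.4 to 551 CPM in NAc. The library NAc CTR 7 stood apart from its label, with 901 CPM of striatal markers and Drd1, the D1 dopamine receptor, at 0.417 CPM and 2 of 4 counted D2 neuron markers at 0. Its 4 counted D1 neuron markers, Drd1 among them, summed to 150 CPM, against 179 to 389 CPM in the other NAc CTR libraries. NAc CTR 7 held 2675 CPM of the 4 counted hypothalamic peptide genes, against 8.62 to 711 CPM in the other NAc CTR, 7.77 to 841 CPM in NAc mCRS and 0 to 60.2 CPM in PFC libraries. The main fold changes of the members that involve NAc CTR are therefore given with it and without it, and those of the other gene lists with it only. In bulk tissue, fewer cells that make a peptide and less RNA in each such cell cannot be told apart.

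Penk, the enkephalin precursor, lay between 71.8 and 501 CPM in PFC CTR with a median of 194 CPM, and between 84.4 and 757 CPM in PFC mCRS with a median of 239 CPM. In NAc CTR it ranged from 143 through a median of 1873 to 2908 CPM, and in NAc mCRS from 1090 through 1811 to 3057 CPM. The 143 CPM belonged to NAc CTR 7, and the next NAc CTR library had 960 CPM. With that library aside every NAc library was above every PFC library, and the 2 NAc groups covered nearly the same range.

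Tac1, the precursor of substance P and neurokinin A, ranged over 15.2, 65.5 and 153 CPM (lowest, median and highest library) in PFC CTR and over 23.8, 114 and 202 CPM in PFC mCRS. In NAc CTR it ranged over 229, 582 and 814 CPM and in NAc mCRS over 346, 526 and 840 CPM. NAc CTR 7 was again the lowest of its group, the second lowest being at 377 CPM, but even its 229 CPM was above the highest PFC library.

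Pdyn, the dynorphin precursor, was more scattered. It ranged over 0, 50.8 and 121 CPM in PFC CTR, 1.18, 29.2 and 119 CPM in PFC mCRS, 9.16, 189 and 301 CPM in NAc CTR and 21.8, 178 and 394 CPM in NAc mCRS. NAc CTR 7 was the lowest of the NAc libraries and the next NAc CTR library had 78.1 CPM. In NAc mCRS the highest library was 18.1 times the lowest, against 2.80 times for Penk and 2.43 times for Tac1 in the same libraries. The 18.1 rested on NAc mCRS 14, at 21.8 CPM: the next library had 66.5 CPM, and without NAc mCRS 14 the Pdyn ratio was 5.93. In NAc CTR without NAc CTR 7 the ratios of Pdyn, Penk and Tac1 were 3.86, 3.03 and 2.16.

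Pnoc, the nociceptin precursor, was low and scattered. It was at 0 counts in 5 of 15 PFC CTR, 8 of 15 PFC mCRS, 3 of 16 NAc CTR and 5 of 16 NAc mCRS libraries, with medians of 13.1, 0, 4.66 and 13.98 CPM and highest libraries at 62.2, 57.2, 94.1 and 52.3 CPM. NAc CTR 7 held the 94.1 CPM and 32.8% of all Pnoc counts of its group, and without it the highest NAc CTR library had 41.1 CPM. The gene reached 10 counts in 13 of 30 PFC and 19 of 32 NAc libraries, so differences in it were poorly resolved. PFC libraries at 0 had a median total of 2194556 counts, against 2149666 for those with a count. In NAc these medians were 1515805 and 2884276.5 counts.

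**Figure D1:**
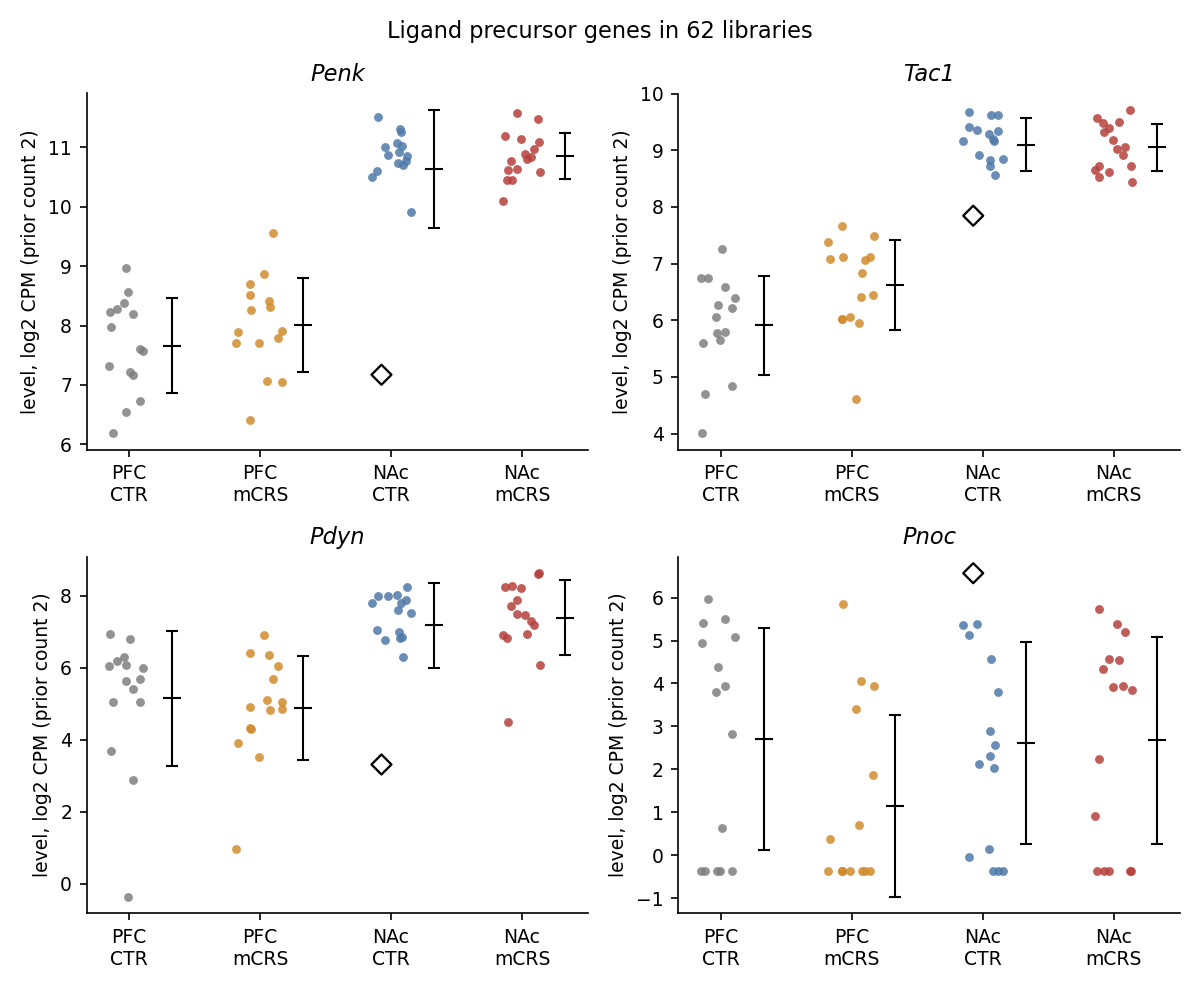
Levels of Penk, Tac1, Pdyn and Pnoc as log2 CPM (prior count 2) in each library of the 4 groups, with the mean and SD beside the points. The open diamond is NAc CTR 7, which is the lowest NAc CTR library for Penk, Tac1 and Pdyn and the highest for Pnoc; Penk and Tac1 in the other NAc libraries lie above all PFC libraries.

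The receptors were sparse in PFC and less so in NAc. Oprk1, which encodes the kappa opioid receptor, ranged over 0, 4.79 and 51.4 CPM in PFC CTR, 0, 8.10 and 73.7 CPM in PFC mCRS, 2.50, 36.7 and 127 CPM in NAc CTR and 0, 29.99 and 88.2 CPM in NAc mCRS. It had no counts in 4 libraries of each PFC group and in 1 NAc mCRS library, and NAc CTR 7 was its lowest NAc CTR library. Oprl1, which encodes the nociceptin receptor, ranged over 0, 15.6 and 106 CPM in PFC CTR, 0, 10.8 and 131 CPM in PFC mCRS, 2.24, 46.3 and 168 CPM in NAc CTR and 0, 52.7 and 108 CPM in NAc mCRS. Here NAc CTR 7 was the highest library of all, at 168 CPM. Oprk1 reached 10 counts in 15 of 30 PFC and 28 of 32 NAc libraries and Oprl1 in 19 of 30 and 30 of 32, and the PFC and NAc values overlapped for both.

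Of 6 further ligand and receptor genes of these families, 3 were counted. Tac2, the neurokinin B precursor, had medians of 19.9, 25.9, 33.6 and 55.7 CPM in PFC CTR, PFC mCRS, NAc CTR and NAc mCRS. Tacr1, the substance P receptor, was at 0 in 12, 9, 3 and 4 libraries of the same groups, and Tacr3, the neurokinin B receptor, in 13, 11, 7 and 7. The tachykinin receptor genes thus had no counts in most PFC libraries.

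**Figure D2:**
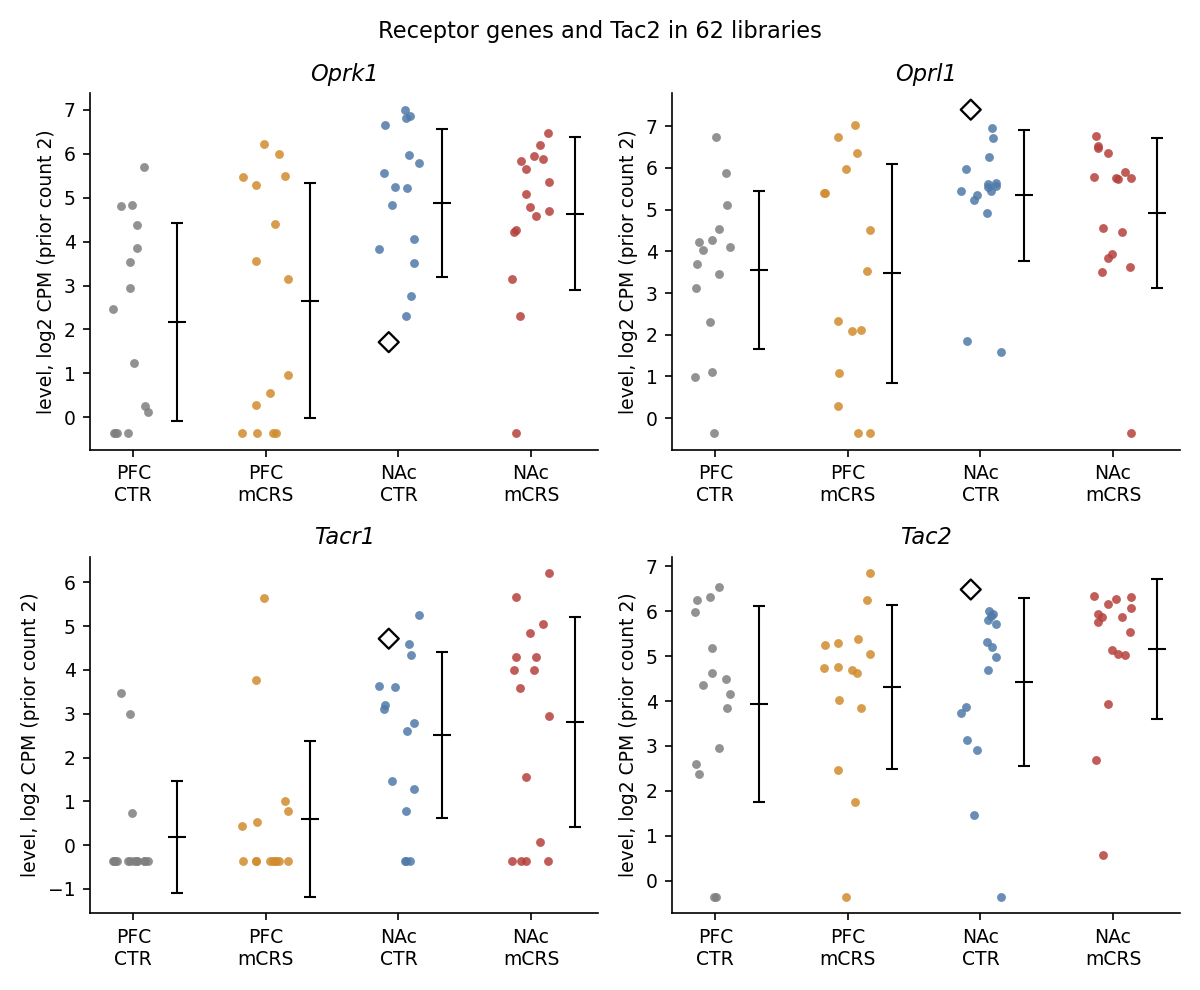
Levels of Oprk1, Oprl1, Tacr1 and Tac2 as log2 CPM (prior count 2) in each library, with the mean and SD beside the points and NAc CTR 7 as an open diamond. The lowest rows of points are libraries with 0 or very few counts, which for Tacr1 are 21 of 30 PFC and 7 of 32 NAc libraries at 0.

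The first comparison asks which of these genes distinguish the NAc from the PFC in unstressed mice. The 3 ligand genes of striatal projection neurons were all higher in NAc. Tac1 was 8.26-fold higher (log2 fold change 3.05, SE 0.23, adjusted p = 1.07e-15 by edgeR's quasi-likelihood test with Benjamini-Hochberg adjustment over 9932 genes), and all 16 NAc CTR libraries were above all 15 PFC CTR libraries. Penk was 7.86-fold higher (2.98, SE 0.24, adjusted p = 1.65e-14 by edgeR), with 15 of 16 NAc CTR libraries above every PFC CTR library. Pdyn was 3.29-fold higher (1.72, SE 0.38, adjusted p = 0.00119 by edgeR), with 11 of 16 above every PFC CTR library. Without NAc CTR 7 the folds were 8.57, 8.32 and 3.49. These 3 of the 6 members tested compare with 2.09% of all genes called higher in NAc. Tac1 was also the only member without any overlap between the regions in CTR libraries, which 0.111% of all genes showed.

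The receptors and Pnoc did not pass. Oprk1 had a log2 fold change of 2.12 (SE 0.74, adjusted p = 0.0815 by edgeR), which passed by DESeq2 with an adjusted p of 0.0232, and 14 of 16 NAc CTR libraries were above the PFC CTR median. Without NAc CTR 7 Oprk1 had 2.21 (SE 0.74, adjusted p = 0.0596 by edgeR). Oprl1 had 1.40 (SE 0.58, adjusted p = 0.179 by edgeR) and 1.20 without NAc CTR 7. Pnoc had −0.10 (SE 0.94), which became −0.62 (SE 0.97) without NAc CTR 7. The counts over all genes depended on the tool: edgeR called 208 genes higher and 420 lower in NAc, and DESeq2 420 higher and 480 lower.

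In mCRS mice the same 3 ligand genes were higher in NAc. Penk was 6.47-fold higher (2.69, SE 0.19, adjusted p = 2.18e-16), Tac1 4.99-fold (2.32, SE 0.21, adjusted p = 9.69e-13) and Pdyn 4.91-fold (2.29, SE 0.37, adjusted p = 6.70e-06), all by edgeR over 9452 genes. They were 3 of 5 members tested, against 2.07% of all genes called higher (196 genes, with 400 lower, where DESeq2 called 443 and 460). Every NAc mCRS library was above every PFC mCRS library for Penk and Tac1, which held for 0.127% of genes, and 13 of 16 were for Pdyn. Oprk1 (0.84, SE 0.79) and Oprl1 (0.43, SE 0.69) did not pass, with adjusted p of 0.748 and 0.887 by edgeR, and Pnoc was below the filter on low counts. Markers of projection and excitatory neurons moved with the region: striatal projection neuron markers were called higher in NAc for 9 of 11 genes in CTR and 11 of 11 in mCRS, the D2 markers for 3 of 3 and 3 of 4, the D1 markers for 2 of 4 and 2 of 3, and the cortical excitatory markers lower for 6 of 9 and 5 of 7. Of 10 genes listed as GABA interneuron markers 4 were called higher and 2 lower in CTR, and 3 higher and 3 lower in mCRS. The 3 higher in mCRS were Gad1, Gad2 and Slc32a1, which were also among the 4 in CTR. They mark GABA neurons in general, which include the projection neurons of the NAc. Vip and Npy were among the genes called lower in both CTR and mCRS. Of 6 oligodendrocyte markers 5 were called higher in NAc in each. The 3 hypothalamic genes tested in CTR were called higher as well, and with the hypothalamic level of each library as a covariate Pdyn lost its call in CTR (adjusted p = 0.0650 by edgeR), though its fold change was no smaller (1.83), while Penk and Tac1 passed. The hypothalamic sum itself differed between the regions, with medians of 2.99 and 231 CPM in PFC and NAc CTR and 1.30 and 322 CPM in mCRS. A call lost under this covariate thus cannot be told apart from the precision lost by its overlap with region. The part of cell composition in these differences was not tested.

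**Figure D3:**
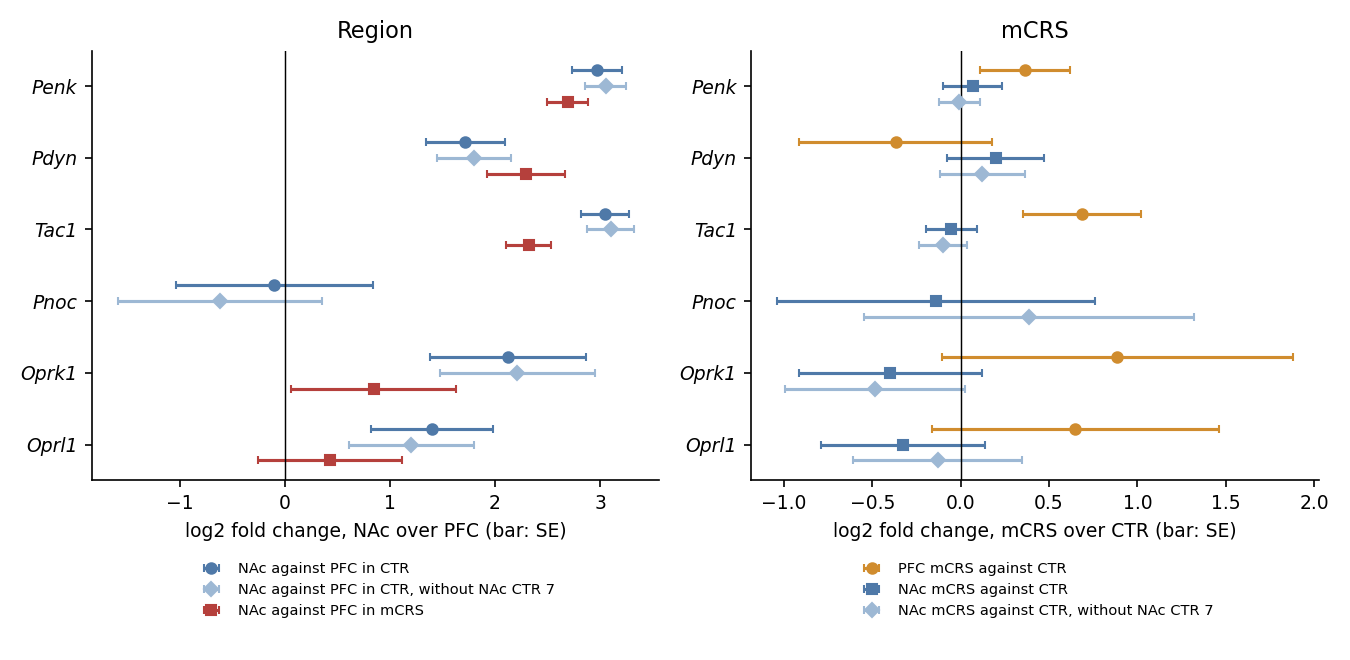
Log2 fold changes of the 6 members with their SE, NAc over PFC on the left and mCRS over CTR on the right, by edgeR; diamonds leave out NAc CTR 7, and Pnoc has no point where it fell below the filter. Penk, Tac1 and Pdyn lie between 1.72 and 3.10 for region, whereas for mCRS the PFC value of Tac1, 0.69, is the one more than 2 SE from 0.

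The second comparison asks what mCRS did to these genes in PFC, and no member passed. Tac1 had the smallest p: its level was 1.61-fold higher in mCRS (log2 fold change 0.69, SE 0.33, unadjusted p = 0.0438, adjusted p = 0.9997 by edgeR over 8916 genes). Of the mCRS libraries 11 of 15 were above the CTR median and 3 were above every CTR library, and only 1 of 15 CTR libraries was above the mCRS median. On log2 CPM the means were 5.91 ± 0.87 (SD, n = 15) in CTR and 6.62 ± 0.80 (SD, n = 15) in mCRS, a difference of 0.71 with p = 0.0272 by a two-sided permutation test, or 0.326 after adjustment over 12 tests of 6 genes in 2 regions. As a share, 1 of 5 members tested was higher at an unadjusted p under 0.05, against 2.12% of all genes. The striatal marker sum had medians of 1063 CPM in PFC CTR and 982 CPM in PFC mCRS, the GABA interneuron sum 1373 and 1470 CPM, and the cortical excitatory sum 1379 and 1202 CPM. Of the 9 cortical excitatory markers 1 had a log2 fold change above 0, with a median of −0.27 against −0.01 over all genes and none called, and their part in the Tac1 value was not tested. Leaving out 1 library at a time gave log2 fold changes of 0.60 to 0.82 and an unadjusted p of 0.0204 without PFC CTR 12 to 0.0888 without PFC mCRS 5, and it was under 0.05 in 14 of 30 such fits.

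Penk had a log2 fold change of 0.36 (SE 0.25, unadjusted p = 0.155) with 12 of 15 mCRS libraries above the CTR median. Pdyn had −0.37 (SE 0.55), Oprk1 0.89 (SE 0.99) and Oprl1 0.65 (SE 0.81), with unadjusted p of 0.504, 0.377 and 0.429 by edgeR. Of the 5 members tested 4 had values above 0, but only Tac1 had an unadjusted p under 0.05 by edgeR. The median of the 5 was the 0.65 of Oprl1, against −0.01 over all genes. Oprk1 and Oprl1 had under 10 counts in 15 and 11 of 30 PFC libraries, and the members are not replicates of one effect. Pnoc fell below the filter, and its mean log2 CPM was lower by 1.56 in mCRS, with 3 of 15 mCRS libraries above the CTR median (p = 0.0814, two-sided permutation test, adjusted 0.488). Over all genes edgeR called none in PFC, with 312 at an unadjusted p under 0.05, and DESeq2 called 5. DESeq2 gave an adjusted p for Penk alone among the members (0.515) and none for the other 5, so it could not have called those.

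In NAc no ligand gene passed between mCRS and CTR, and the estimates for Penk and Tac1 were close to 0. Penk had a log2 fold change of 0.07 (SE 0.17), which was −0.01 (SE 0.12) without NAc CTR 7. Tac1 had −0.05 (SE 0.15) and −0.10 (SE 0.14) without that library, and Pdyn 0.20 (SE 0.27) and 0.12 (SE 0.24). For Penk and Tac1 the folds 1 SE to either side ran from 0.917 to 1.08 and from 0.849 to 1.02 without NAc CTR 7. The estimates for Pnoc, Oprk1 and Oprl1 were less well resolved. Pnoc had −0.14 (SE 0.90), or 0.39 (SE 0.94) without NAc CTR 7, Oprk1 −0.40 (SE 0.52) and Oprl1 −0.33 (SE 0.47). Without that library Oprk1 had −0.48 (SE 0.51) and Oprl1 −0.13 (SE 0.48). None of the 6 members passed, with unadjusted p from 0.446 to 0.876 by edgeR, against 1 of 10141 genes called and 207 at an unadjusted p under 0.05. The called gene was Ttr, a choroid plexus marker, and 1 library, NAc mCRS 10, held 21732 CPM of the choroid plexus list.

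The third comparison asks whether mCRS acted differently in the 2 regions, as the log2 fold change in PFC minus that in NAc. Tac1 had 0.73 (SE 0.30, unadjusted p = 0.0162, adjusted p = 0.99997 by edgeR over 11025 genes) and 0.77 (SE 0.29, unadjusted p = 0.0102) without NAc CTR 7. It was 1 of 6 members at an unadjusted p under 0.05 and above 0, against 1.45% of all genes. The other members had 0.28 (Penk), −0.57 (Pdyn), −1.24 (Pnoc), 1.28 (Oprk1) and 0.97 (Oprl1), with unadjusted p from 0.236 to 0.402 by edgeR. Without NAc CTR 7 they had 0.35, −0.49, −1.77, 1.34 and 0.77 in the same order. The difference between the regions in Tac1 was hence not established over the genes tested. The comparisons share libraries: the NAc to PFC ratio of Tac1 was 8.26 in CTR and 4.99 in mCRS and both rest on the PFC levels compared above.

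Among libraries of one region, Penk moved with the striatal markers. In the 31 NAc libraries without NAc CTR 7, centred within treatment, log2 Penk and the mean log2 level of the 11 striatal markers had Pearson's r = 0.83 and Spearman's rho = 0.86 (adjusted permutation p = 0.00026 for each over 26 pairs), and r = 0.81 without the 2 libraries farthest from the median of the marker level. Tac1 and the striatal markers had r = 0.62 and rho = 0.59 (adjusted permutation p = 0.00429 and 0.0112), or r = 0.55 without the 2 farthest. Penk and Tac1, which are made by different projection neurons, had r = 0.57 and rho = 0.55 (adjusted permutation p = 0.0078 and 0.0124), or r = 0.53. With NAc CTR 7 included, 14 of 26 pairs passed by r (7 of them also by rho) instead of these 3 (4 by rho), and r was 0.93 for Penk with the striatal markers and 0.70 for Penk with Tac1. Penk and Pdyn had r = 0.70 with that library and 0.34 without it, and Pdyn and Tac1 0.65 and 0.47, so that neither of these pairs passed without it. Pdyn and Pnoc ran in opposite directions, with r = −0.51 and rho = −0.61 over all 32 libraries (adjusted permutation p = 0.00721 and 0.00266). Without NAc CTR 7 they had r = −0.42 and rho = −0.56, which passed by rho but not by r (adjusted permutation p = 0.0124 and 0.0731), and r = −0.34 without the 2 farthest libraries. Within the 16 NAc mCRS libraries alone Penk and the striatal markers had r = 0.83, the 1 pair that passed there.

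The hypothalamic peptide genes, added as a partner after the data were seen, ran the other way for the 3 striatal ligands. Without NAc CTR 7, Tac1 had r = −0.70 and rho = −0.73 with their level (permutation p = 1e-05 for each, the smallest that 100000 resamples can give), and r = −0.67 without the 2 libraries farthest from the median. Penk had r = −0.57 and rho = −0.54 (adjusted permutation p = 0.0018 and 0.00456 over 4 pairs), and Pdyn r = −0.44 and rho = −0.48 (0.0149 and 0.00901). Pnoc had r = 0.44 and rho = 0.39 (adjusted permutation p = 0.0154 and 0.0298). Tac1 thus tended to be lower in the libraries with more RNA of the hypothalamic genes. Its part in the spread of Tac1 was not tested beyond this relation and the covariate fits. In PFC, 1 of 15 pairs passed: Penk and the striatal markers had r = 0.57 and rho = 0.56 over 30 libraries (adjusted permutation p = 0.0228 and 0.0292), and r = 0.52 without the 2 farthest. Within the 15 CTR libraries the same pair had r = 0.66 and rho = 0.64 and within the 15 mCRS libraries r = 0.47 and rho = 0.58, similar in size, though no pair passed with those smaller numbers (adjusted permutation p = 0.13 and 0.125, 0.423 and 0.242). Tac1 in PFC had r = 0.21 and rho = 0.14 with the striatal markers (permutation p = 0.285 and 0.463). With the GABA interneuron markers it had r = −0.31 and rho = −0.38, which did not pass (adjusted permutation p = 0.376 and 0.314).

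**Figure D4:**
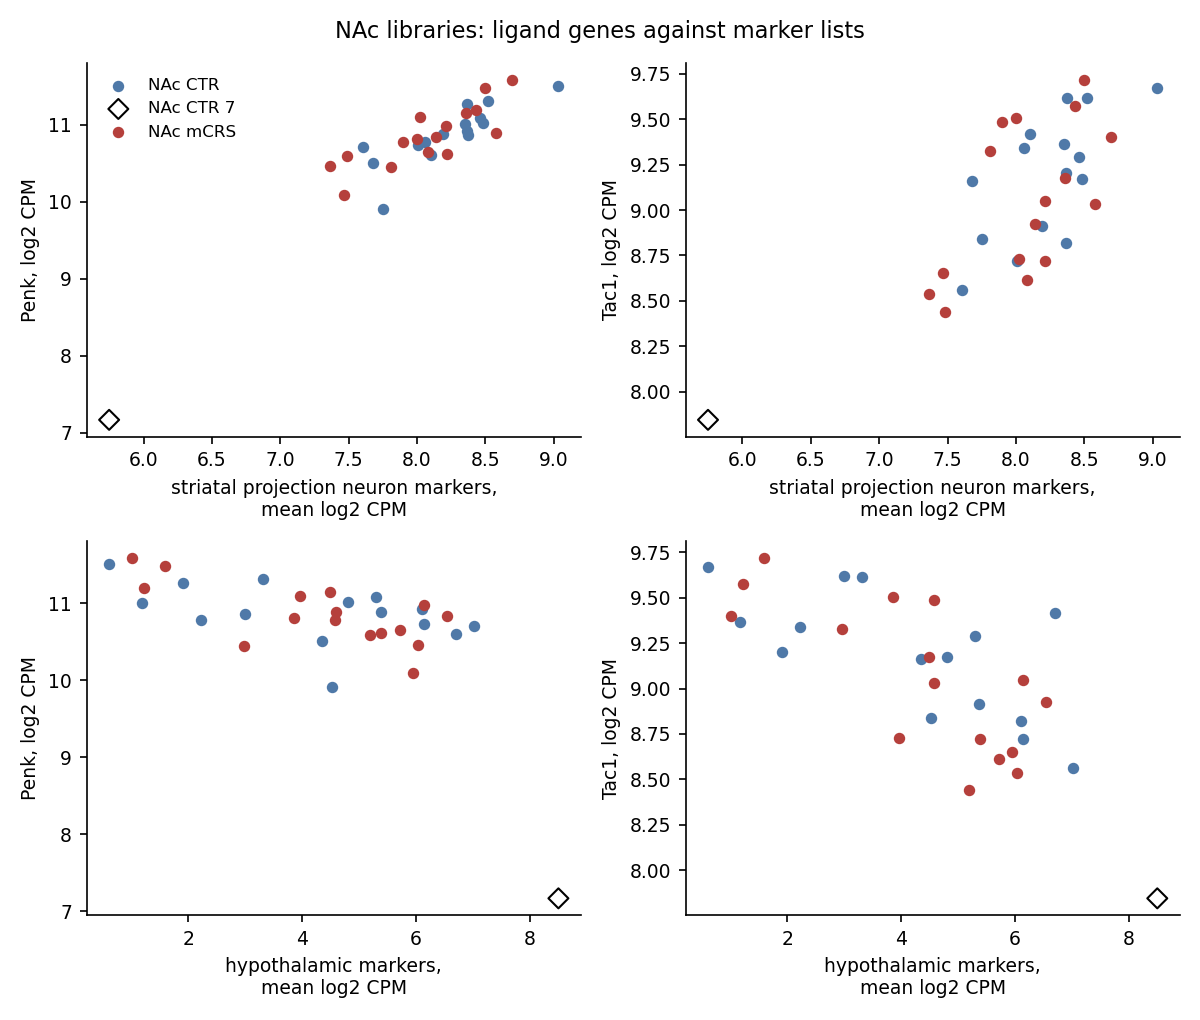
Log2 CPM of Penk (left) and Tac1 (right) in the 32 NAc libraries against the mean log2 CPM of 11 striatal projection neuron markers (top) and of 4 hypothalamic peptide genes (bottom). NAc CTR 7 (open diamond) lies far from the rest in the striatal markers and Penk, and is the highest for the hypothalamic genes and the lowest for Tac1. Among the other libraries Penk follows the striatal markers most closely (r = 0.83) and Tac1 falls with the hypothalamic genes (r = −0.70).

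The genes whose levels were most like each member across libraries are a description with no test, from 9811 genes in NAc and 8560 in PFC. In NAc without NAc CTR 7, Penk was closest to Baiap2 (r = 0.78), Pde1b (0.77) and Hpca (0.76), genes of synaptic scaffolding, cyclic nucleotide breakdown and neuronal calcium sensing. Tac1 was closest to Rasgrp1 (0.77), Pcp4l1 (0.76) and Rasl10b (0.68), and Pdyn to Phactr1 (0.62), C1qtnf4 (0.59) and Itm2c (0.59). Oprk1 was closest to Pitpnc1 (0.71), Strip2 (0.69) and Foxp1 (0.68), Oprl1 to Kantr (0.75), Vamp4 (0.73) and Irf2bp1 (0.71), and Pnoc to Gas2 (0.65), Ap2s1 (0.62) and Ift46 (0.62). In PFC the nearest gene was Ppil3 for Tac1 (0.67), 2010300C02Rik for Pdyn (0.66), Nolc1 for Oprk1 (0.68) and 1190002N15Rik for Oprl1 (0.62).

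Genes that turn the precursors into peptides, or break the peptides down, were compared as a list fixed with the members. Of 16 listed, 14 were tested in CTR and 13 in mCRS, and in each 1 was higher and 3 lower in NAc, with a median log2 fold change of −0.35 and −0.24 against 0.02 and 0.03 over all genes. Of all genes tested, 208 of 9932 were called higher and 420 lower in CTR, and 196 of 9452 and 400 in mCRS. The convertase Pcsk2 was lower by 1.02 and 1.01 on the log2 scale, its chaperone Scg5 by 0.76 and 0.66, and carboxypeptidase E (Cpe), which trims the cut ends, by 0.40 and 0.36. Pcsk1n, an inhibitor of the other neuronal convertase, was higher by 0.40 and 0.51. With the hypothalamic level as a covariate, which lowered the calls over all genes from 628 to 201 and from 596 to 163, all 4 lost their calls but kept their direction. Pcsk2 then had −0.90 and −0.86, Scg5 −0.61 and −0.65, Cpe −0.42 and −0.20, and Pcsk1n 0.31 and 0.38. As the hypothalamic level overlaps with region, these lost calls cannot be told apart from lost precision.

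Of 22 genes of receptor signalling 20 were tested, with 2 called higher and 6 lower in NAc in CTR and 3 higher and 5 lower in mCRS. Over all genes 208 were called higher and 420 lower of 9932 in CTR, and 196 and 400 of 9452 in mCRS. The striatal adenylyl cyclase Adcy5 (1.995 in CTR and 1.97 in mCRS) and Rgs9 (2.95 and 3.07), a regulator that shortens G protein signals, were higher, and the cyclase Adcy1 was lower (−2.28 and −2.04). The potassium channel subunit Kcnj3, a target of Gi-coupled receptors, was lower (−1.76 and −2.07), as was Kcnj9 in CTR (−1.67), and the G protein subunit gene Gnai2 was higher in mCRS (0.68). With the hypothalamic covariate the last 3 lost their calls, Kcnj3 having −1.56 and −1.67, Kcnj9 −1.69 and Gnai2 0.86. The overlap of this covariate with region limits these losses in the same way. All adjusted p came from edgeR over all genes. Tac2 had 0.17 (SE 0.65) and 0.59 (SE 0.57) between the regions and did not pass.

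With mCRS, no gene of these lists passed in either region or in the difference between regions. The smallest unadjusted p in PFC were, in the signalling list, for the beta-arrestin gene Arrb1 (−0.67, p = 0.0287), Adcy1 (−0.34, p = 0.0340) and the G protein subunit gene Gnao1 (−0.29, p = 0.0340), and in the processing list for the protease gene Ctsl (0.52, p = 0.108), all by edgeR with adjusted p of 0.9997. In NAc the gene of smallest p in each list was Gnaq (−0.28, p = 0.158), the dipeptidyl peptidase gene Dpp3 (0.69, p = 0.256) or Tac2 (0.48, p = 0.352) by edgeR, for signalling, processing and the further ligands and receptors. In the difference between regions the gene of smallest p in each list was Mme (−3.86, SE 1.56, p = 0.0153), which encodes the enkephalin-cleaving peptidase neprilysin, Arrb1 (−0.79, p = 0.0375) or Tacr3 (−2.97, p = 0.0816) by edgeR, with adjusted p of 0.99997.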

How the data were processed

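The authors sequenced BRB-seq libraries from 50 ng of RNA of one hemisphere per mouse, and left out PFC samples of poor quality. Per the labels, bcl2fastq, STAR and HTSeq 0.9.1 were used with mm10 (GRCm38). The deposited table holds raw read counts per gene, without molecular identifiers, so intervals and limits cover counting error only, and every gene in it was counted in at least 14 libraries. No pair of libraries was identical. Libraries of a group were taken as separate mice, and p-values measure the spread between these libraries.

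The members and gene lists were chosen with earlier results of these data known. Counts were tested with edgeR 4.0.16 (R 4.3.3; filterByExpr by group, TMM, quasi-likelihood test, Benjamini-Hochberg over all genes tested, threshold 0.05), SE being the fold change over the root of F, and levels were log2 CPM with a prior count of 2. The fits by edgeR and DESeq2 were also run on simulated counts with known changes, for mCRS in PFC and for region in CTR. The outcome is not reported here. The difference between regions in the effect of mCRS and the correlations were not simulated. Alternatives were DESeq2 1.42.0, other scaling and filters, covariates, a replicate block, 1 fit of all 62 libraries and leaving libraries out. The permutation tests (100000 resamples, within treatment for correlations), the hypothalamic covariate and partner, the correlations without NAc CTR 7 and the ligand ratios were added after the data were seen. Named were all members, from the processing, signalling and further ligand and receptor lists the 5 genes of smallest p among those passing between regions and the 3 of smallest p for mCRS, of which some are given, and the 3 genes most like each member in a region, which are not reported here for Penk in PFC. Marker lists are given as sums and counts.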

Additional observations from a re-analysis of the deposited data

How the results depend on the processing

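None of the alternatives gave a member a call for mCRS in PFC, in NAc or between them, and Penk and Tac1 passed between regions under every one. Tac1 in PFC ranged from 0.68 to 0.91 over 8 alternatives (unadjusted p 0.0023 to 0.0998, adjusted p from 0.316 upwards by edgeR, while DESeq2 gave none for it). The number of correlated pairs that passed fell from 1 to 0 in PFC within CTR and within mCRS libraries, and in NAc from 14 to 1 within mCRS libraries and to 3 without NAc CTR 7. Directions of values that had not passed turned for Oprl1 in PFC (from 0.65 to −0.0038) and Tacr1 in the difference between regions (from above 0 to −0.040) with the replicate block, and for Tac1 in NAc (from −0.05 to 0.026) and Oprl1 between regions in mCRS (from 0.43 to −0.76) with the hypothalamic covariate. Leaving out 1 library turned Penk in NAc (−0.0076 to 0.14) and Pnoc in NAc (−0.39 to 0.39), and the cause of none of these turns was tested. Genes called over the whole table went from 0 in PFC to 5 (DESeq2, or all 62 libraries in 1 fit) and to 1 (no filter, or the block), and from 1 in NAc to between 0 and 2. Between regions 628 (CTR) and 596 (mCRS) fell to 201 and 163 with the hypothalamic covariate, which itself overlaps with region, and DESeq2 called 903 in mCRS. No pairing by replicate number was seen, with 0 pairs correlated above 0.1 and 1 library of each pair of groups correlating best with its own number. Correlations were near 0 for the other combinations too, and CTR and mCRS libraries came from different mice. The check therefore cannot show whether a number marks a mouse. With the block Tac1 in PFC had 0.71 (p = 0.0998) by edgeR. Leaving out each library was run for mCRS in PFC and in NAc, and for the other comparisons only without NAc CTR 7; the remaining ones were not run. Pnoc, Oprk1, Oprl1 and the tachykinin receptors had under 10 counts in many PFC libraries, and the part of depth in this was not tested.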

Other observations

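The balance between ligands was also compared, as log2 ratios of levels within a library. None of the 18 tests passed after adjustment, the smallest adjusted permutation p being 0.527. The Pdyn to Tac1 ratio was lower in NAc CTR than in PFC CTR by 1.16 on the log2 scale (unadjusted permutation p = 0.0384), or by 0.98 without NAc CTR 7 (p = 0.0689, permutation test). In NAc the Penk to Pdyn ratio had means of 3.46 ± 0.91 (SD, n = 16) in mCRS and 3.45 ± 0.67 (SD, n = 16) in CTR on the log2 scale.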
